A study of Mus musculus with 16 samples.

Results

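The genes of the mitochondrial respiratory chain were read in B16-BL6 mouse melanomas given 5-aminolevulinic acid (ALA), X-rays, both or neither. Members were the non-control probes whose gene name on the array begins with Nduf, Uqcr, Cox4 to Cox8 or Atp5, or is Sdha, Sdhb, Sdhc or Sdhd. The rule found 123 probes for 89 gene names among the 30026 names of the array, and 82 of the 89 are subunits of complexes I to V. The other 7 are 4 complex I assembly factors (Ndufaf1 to Ndufaf4) and 3 genes that match by name but encode no subunit (Cox4nb, Atp5s and Atp5sl). After the filter on dim probes 86 member genes were tested, 79 of them subunits: 36 of complex I, 4 of complex II, 8 of complex III, 16 of complex IV and 15 of complex V. The 3 members below the filter were the complex IV isoforms Cox4i2, Cox7b2 and Cox8c.

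The tumours were B16-BL6 melanomas of 8-week-old male C57BL/6J mice, 4 tumour preparations in each of 4 groups. ALA+Xray tumours were given 50 mg/kg ALA locally before fractionated irradiation, and Xray tumours were irradiated without ALA. ALA tumours were given 50 mg/kg ALA and no irradiation, and control tumours were given neither. Each preparation was hybridised to a 1-colour Agilent mouse array with 60-base probes. The radiation dose and the time between treatment and collection are not given in the sources used here.

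The respiratory chain sits in the inner mitochondrial membrane. Complex I takes electrons from NADH and complex II takes them from succinate, both pass them to ubiquinone, complex III passes them to cytochrome c, and complex IV hands them to oxygen. Complexes I, III and IV pump protons, and complex V, the ATP synthase, uses the returning protons to make ATP. Most subunits are encoded in the nucleus, and a few catalytic ones in mitochondrial DNA, which no probe of the array named here represents. Complex IV is assembled with different isoforms of its small subunits in muscle, lung or testis. ALA is the first dedicated precursor of heme, a cofactor that complexes II, III and IV carry.

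Levels are given as log2 of the processed signal minus the array's 75th percentile, so that 0 is the brightness below which 75% of the spots of that array lie. That percentile was 213 to 521 intensity units, and 44.3% to 53.6% of spots were well above background. Each of the 4 slides carried 1 array of every group, always in one place for each group, so slide position and treatment cannot be told apart. Tumour arrays differed in host tissue: the summed level of 15 skeletal muscle markers ran from 1.92 to 1040 in ALA+Xray, 2.67 to 43.2 in Xray, 2.21 to 6.89 in ALA and 1.86 to 359 in control tumours, in multiples of the 75th percentile. For 15 macrophage and monocyte markers the sum was 200 to 417 in ALA+Xray, 22.4 to 157 in Xray, 15 to 48.6 in ALA and 76.1 to 149 in control tumours, highest in ALA+Xray. By the mean log2 level of these markers ALA+Xray 1 (1.50) lay below Xray 1 (1.96) and control 4 (1.67). The median sum of 9 fibroblast markers was 174 in ALA+Xray, 35 in Xray, 30.9 in ALA and 72.2 in control tumours. Erythroid markers summed to 23.4 to 54.8 in ALA+Xray, 26.2 to 819 in Xray, 280 to 698 in ALA and 60.1 to 173 in control tumours. In ALA+Xray against ALA tumours 8 of 9 fibroblast markers rose and 3 of 4 erythroid markers fell, against 10.7% and 13.4% of all genes. Of 4 T and NK cell markers tested, Gzmb and Nkg7 rose in ALA+Xray against control and against ALA, where 9.76% and 10.7% of all genes rose. The mean log2 level of 9 melanocyte markers stayed between 4.81 and 5.31 on every array. Probes near the 3' end of a transcript were set against probes of the same accession at least 500 bases upstream, over 2983 genes. They read relatively brighter on ALA+Xray arrays 3 (0.29 log2 above the control mean) and 4 (0.16) than on the other 14 arrays. Those lay between -0.21 and 0.07, with ALA arrays 1 (-0.11), 3 (-0.21) and 4 (-0.12) lowest. The part of these differences in the results below was not tested. Fits with the muscle level as a covariate are given as descriptions only. In bulk tumour RNA, fewer cells of a kind and less RNA per cell cannot be told apart.

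In ALA+Xray against control tumours 7 of 86 members passed the limma test, at a Benjamini-Hochberg adjusted p under 0.05 over 15415 genes, whereas 24.8% of all genes tested passed. Of the 86, 6 rose, against 9.76% of all genes, and 1 fell, against 15.1%. The members that rose were Ndufv3 and Ndufs3 of complex I and Cox7a1, Cox7c, Cox6c and Cox6b1 of complex IV, and Ndufv2 of complex I fell. The median log2 fold change was 0.10 over the members and -0.08 over all genes, and 90.7% of members against 65% of all genes lay within 0.5 of 0. Array values of the groups did not overlap for 5 members that were higher and for none that were lower, against 8.98% and 11.6% of all genes. At an unadjusted p under 0.05 there were 16 members (18.6%), against 39.8% of all genes.

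By complex, the subunits called in ALA+Xray against control tumours were 3 of 36 in complex I, 0 of 4 in complex II, 0 of 8 in complex III, 4 of 16 in complex IV and 0 of 15 in complex V. The median log2 fold change was 0.08 in complex I, 0.06 in complex II, 0.29 in complex III, 0.29 in complex IV and 0.09 in complex V. The complex IV median was 0.17 over its 12 common subunits and 1.41 over its 4 tissue isoforms. In complex IV, 15 of 16 genes had a fold change above 0, the exception being Cox7a2l (-0.23), which is known as a supercomplex assembly factor. In Xray against control tumours the medians were 0.05, -0.04, 0.21, 0.17 and 0.13 for complexes I to V, and in ALA against control tumours they were -0.08, -0.05, -0.05, -0.02 and -0.05. Complexes III and IV had the highest medians in both irradiated groups, and these comparisons share the control arrays. In calls in ALA+Xray against control, complex IV (25%) stood near the 24.8% of all genes, and complex I (8.33%) below it. The difference between complexes was not tested.

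**Figure D1:**
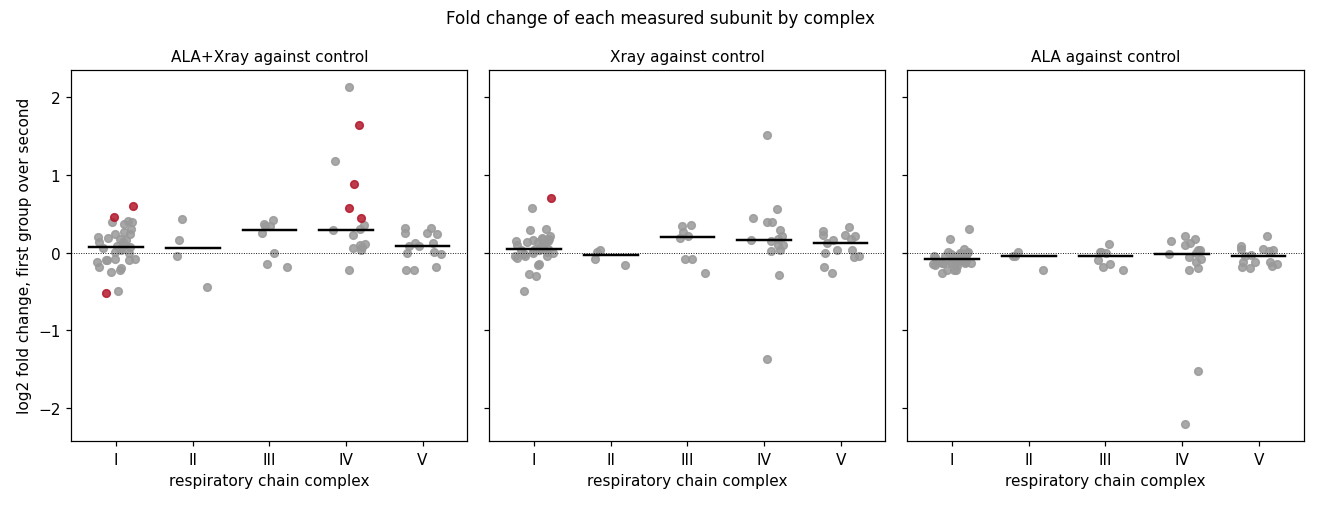
Each point is 1 subunit gene, placed by its complex (horizontal axis) and its log2 fold change (vertical axis) in ALA+Xray, Xray and ALA tumours, each against control. Red points passed the limma test and black bars are medians. Of the 7 red points of ALA+Xray against control, 4 lie in complex IV (25% of its 16 genes, against 24.8% of all genes). No point is red for ALA alone, where 0% of all genes passed.

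The count of 7 depended on single tumours. Leaving out 1 array at a time gave 2 to 9 member calls in ALA+Xray against control. Calls among all genes moved as well, from 1955 to 5953, against 3828 with all arrays. The member count was 2 without control 1 or ALA+Xray 3, 3 without control 4 and 4 without control 2. Without ALA+Xray 1 there were 9 calls, 4 higher and 5 lower, against 6 and 1 with all arrays. Background and scaling moved the count both ways. It was 21 of 86 with a normexp background (27.3% of all genes), 15 with quantile normalisation (26.5%), 14 in the table deposited by the authors (26%) and 14 with the percentile over spots bright on every array (24.8%). It was 1 with median scaling, Cox7a1 (13.9% of all genes), and 0 in a fit on the 8 arrays of the comparison (10.4%). Array weights gave 3 higher and 9 lower (41.8%). How far the members' share lay below that of all genes therefore depended on the setting.

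The median level of the members differed between single tumours, and the ALA+Xray tumours did not move alike. The median deviation of all members from their control mean was 0.36, -0.15, 0.39 and -0.11 in ALA+Xray tumours 1 to 4. It was 0.12, 0.05, 0.04 and 0.16 in Xray tumours, -0.12, 0.14, -0.20 and -0.08 in ALA tumours, and 0.13, 0.06, -0.09 and -0.09 in control tumours. ALA+Xray tumours 1 and 3 lay above all other arrays, ALA+Xray tumours 2 and 4 lay below every control, and the 4 groups overlapped except that all Xray tumours were above 0. Complex V split most evenly, at 0.40, -0.20, 0.36 and -0.21 in ALA+Xray tumours against 0.10, 0.09, -0.10 and -0.11 in control tumours. Complex IV stood at 0.45, 0.01, 0.60 and 0.08 in ALA+Xray tumours against 0.03, 0.08, -0.06 and -0.09 in control tumours. Over its 12 common subunits alone the ALA+Xray tumours had 0.45, -0.11, 0.52 and -0.08, with tumours 2 and 4 below the control mean. Medians of subunits within one tumour could also go opposite ways. In ALA+Xray tumour 3 the median was -0.14 over the core subunits of complex I and 0.40 over its accessory subunits. ALA+Xray tumours 1 and 3 differed in host tissue, with a mean log2 muscle marker level of -4.02 in tumour 1 and 4.65 in tumour 3.

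**Figure D2:**
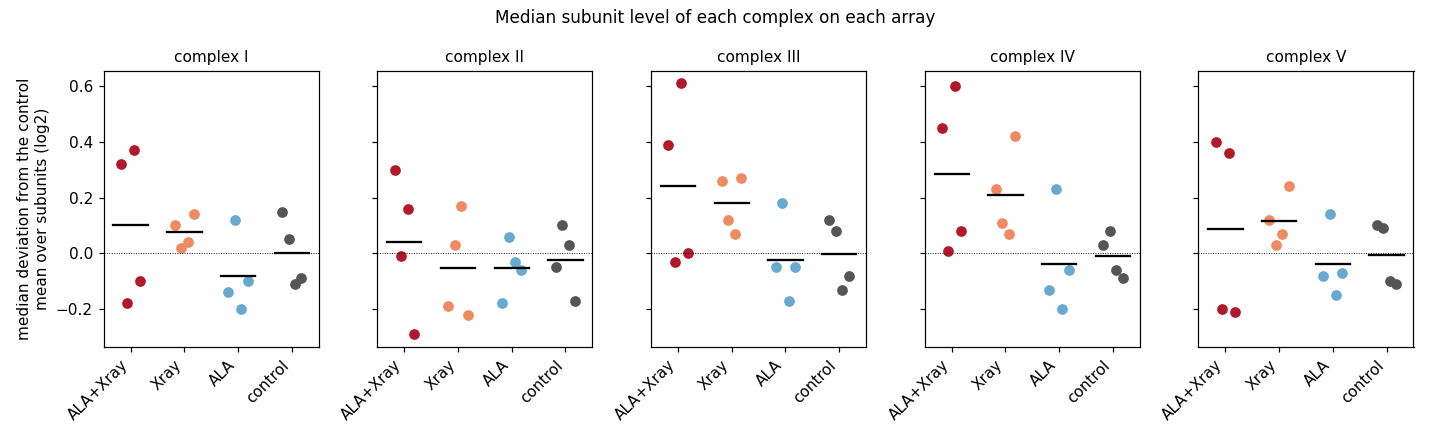
Points are arrays, grouped by treatment (horizontal axis); the vertical axis is the median, over the subunits of a complex, of the deviation from the control mean in log2 units, and bars are group means of 4 arrays. In every complex the ALA+Xray arrays spread most widely, from -0.18 to 0.37 in complex I and from 0.01 to 0.60 in complex IV.

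Among the 7 core subunits of complex I, which carry the flavin and the iron-sulfur clusters, Ndufs3 and Ndufv2 went opposite ways. Ndufv2, the 24 kDa iron-sulfur subunit beside the flavin, read 4.39, 3.82, 4.05 and 3.55 in ALA+Xray tumours and 4.73, 4.53, 4.26 and 4.40 in control tumours. ALA+Xray tumours 2, 3 and 4 were below every control and tumour 1 was within the control range. Its log2 fold change was -0.52 (SE 0.17, limma adjusted p = 0.0359), and the ALA+Xray array was below the control array on all 4 slides. The call was lost without control 1, 2 or 4 or without ALA+Xray 2, 3 or 4, with adjusted p up to 0.105.

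Ndufs3, a core subunit of the arm that leads electrons to ubiquinone, read 5.29, 4.73, 5.22 and 4.90 in ALA+Xray tumours and 4.20, 4.61, 4.70 and 4.78 in control tumours. Control 1 was the lowest of all arrays, and ALA+Xray 2 lay inside the control range. The log2 fold change was 0.46 (SE 0.15, limma adjusted p = 0.0419), and the call held in 7 of 16 fits that left out 1 array. It was lost without control 1 or 2, ALA 1, 2 or 4, Xray 2, or ALA+Xray 1, 3 or 4 (adjusted p up to 0.128), and with slide as a block (0.0529). Of the other core subunits, Ndufs1 (-0.20), Ndufs7 (0.03), Ndufs8 (-0.09) and Ndufv1 (-0.12) did not pass, and their 95% intervals include 0.

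Ndufv3, an accessory subunit of the NADH-binding module that is known to be made in a short and a long form, was the member with the smallest p. It read 5.11, 4.95, 5.63 and 5.23 in ALA+Xray tumours, 5.45, 5.23, 5.19 and 5.44 in Xray tumours, 4.86, 4.72, 4.67 and 4.92 in ALA tumours and 4.68, 4.66, 4.70 and 4.45 in control tumours. Every irradiated tumour was above every tumour that was not irradiated. The log2 fold change was 0.60 (SE 0.14, limma adjusted p = 0.00993) in ALA+Xray against control, 0.71 (SE 0.14, 0.0243) in Xray against control and 0.43 (SE 0.14, 0.0359) in ALA+Xray against ALA tumours. The first call held in 16 of 16 fits that left out 1 array. The second was lost without control 2 or 4 or Xray 1, 2 or 4 (adjusted p up to 0.0767), and the third without any 1 ALA array or ALA+Xray 3 or 4 (up to 0.0929).

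Ndufv3 has 3 probes on the array, shown here because they did not give the same result. They lie on the plus strand of chromosome 17 in the mm9 annotation of the array, all within the listed transcript, at chr17:31658570-31658629, chr17:31664691-31664750 and chr17:31665148-31665207. For the first probe the array lists 2 transcripts, and for the others 1. Each probe is given 5' to 3', in lower case throughout, and named by its first base in the transcript.
Ndufv3 probe from base 203: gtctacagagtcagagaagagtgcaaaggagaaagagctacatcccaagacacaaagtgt
Ndufv3 probe from base 707: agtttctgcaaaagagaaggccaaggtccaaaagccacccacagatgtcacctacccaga
Ndufv3 probe from base 1164: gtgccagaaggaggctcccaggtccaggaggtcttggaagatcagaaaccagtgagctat

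The probe from base 203 is the brightest and gave the values above. The probe from base 707 read 0.22, 0.46, -0.07 and 0.31 in ALA+Xray tumours, 1.39, 1.03, 0.60 and 1.04 in Xray tumours, 0.90, 0.63, 0.26 and 1.21 in ALA tumours and 0.67, 0.33, -0.04 and 0.20 in control tumours. Here the ALA+Xray tumours overlapped the controls and lay below every Xray tumour. All 3 probes were higher in Xray than in control tumours, by 0.71, 0.72 and 0.86 log2 units in transcript order. In ALA+Xray against control tumours the values were 0.60 (SE 0.14), -0.06 (SE 0.22) and 0.26 (SE 0.16), and the first alone passed the limma test across all probes (adjusted p = 0.0112, 0.872 and 0.25). The ALA by X-ray interaction was -0.27, -1.24 and -0.90 in the same order, and none passed the limma test across all probes (adjusted p = 0.478, 0.0672 and 0.0712).

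**Figure D3:**
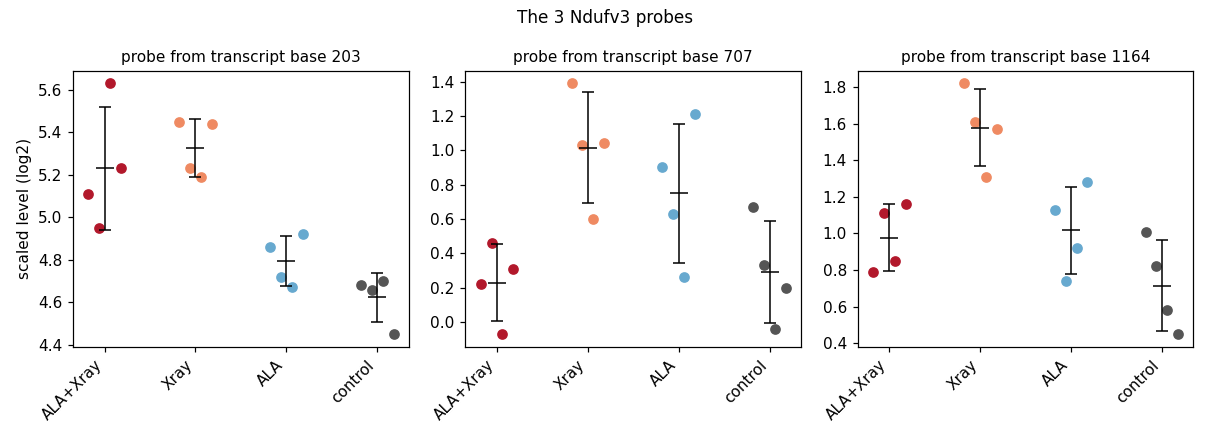
The 3 panels are the 3 Ndufv3 probes in transcript order; points are arrays by group (horizontal axis), the vertical axis is the scaled log2 level, and error bars are the mean and SD of 4 arrays. In the panels from bases 707 and 1164 the ALA+Xray arrays sit below the Xray arrays, and in the panel from base 203 they sit beside them.

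The other accessory subunits of complex I had no call in ALA+Xray against control tumours. Of 29, 1 passed there (3.45%, against 24.8% of all genes), and the group's median was 0.14, against -0.09 for the 7 core subunits. The median deviation of the 29 was 0.34, -0.16, 0.40 and -0.08 in ALA+Xray tumours 1 to 4. In control tumours it lay between -0.11 and 0.15. The lowest was Ndufa10 (-0.50, adjusted p = 0.079 in limma), and the highest after Ndufv3 were Ndufb5 (0.41, 0.126) and Ndufc1 (0.40, 0.0845). Ndufa11, a membrane-arm accessory subunit, rose in ALA+Xray against ALA tumours by 0.48 (SE 0.17, limma adjusted p = 0.0495), with 2.64, 1.98, 2.41 and 2.06 in ALA+Xray and 1.67, 2.15, 1.48 and 1.87 in ALA tumours. ALA tumour 2 lay inside the ALA+Xray range, and the call held in 2 of 16 fits, those without ALA 2 or ALA+Xray 2, with adjusted p up to 0.13 in the rest. None of the 4 assembly factors passed in any comparison, and Ndufaf2 was lowest in ALA+Xray against control at -0.34 (adjusted p = 0.0755).

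Complex II, the succinate dehydrogenase shared with the citric acid cycle, had no call in any of the 6 comparisons of the main fit. With slide as a block Sdha passed in ALA+Xray against ALA tumours (0.47, limma adjusted p = 0.0448). Sdhc passed in ALA+Xray against control in 4 of 33 alternative settings. Sdhc, a membrane anchor, read 4.05, 3.62, 3.08 and 3.17 in ALA+Xray tumours and 4.11, 3.95, 3.91 and 3.71 in control tumours. ALA+Xray tumours 2, 3 and 4 were below every control, and the log2 fold change was -0.44 (95% interval -0.82 to -0.07, limma adjusted p = 0.0782). Sdha, the flavoprotein, stood at 0.43 (-0.06 to 0.92), Sdhb at -0.04 (-0.42 to 0.35) and Sdhd at 0.16 (-0.10 to 0.41). Of the 4 subunits, Sdhc alone had an interval that leaves out 0, and its adjusted p did not pass.

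Complex III had 1 call, Uqcrb, a subunit at the ubiquinone-binding site, in ALA+Xray against ALA tumours. It read 4.90, 4.08, 4.72 and 4.20 in ALA+Xray tumours and 3.79, 4.04, 3.69 and 4.05 in ALA tumours. The groups did not overlap, although ALA+Xray 2 exceeded the nearest ALA tumour by little, and the log2 fold change was 0.59 (SE 0.17, limma adjusted p = 0.0223). The call was lost without ALA 1 or 3 or ALA+Xray 3 (up to 0.0647). The small subunits Uqcrh (0.42), Uqcrb (0.37), Uqcr11 (0.34), Uqcr10 (0.34) and Uqcrq (0.25) were above 0 in ALA+Xray against control, and the larger Uqcrc1 (-0.19), Uqcrc2 (-0.15) and Uqcrfs1 (0), which form the core and carry the iron-sulfur cluster, were not. None of these 8 passed there, with adjusted p from 0.0766 to 0.99.

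Complex IV held 4 of the 6 rises. Its share called, 4 of 16 (25%), was near the 24.8% of all genes called in either direction, while 9.76% of all genes rose. Cox7a1, the heart and skeletal muscle isoform of subunit VIIa, read 3.55, 3.20, 5.14 and 2.83 in ALA+Xray tumours, 3.24, 3.90, 3.11 and 3.96 in Xray tumours, 1.96, 2.43, 1.71 and 2.55 in ALA tumours and 2.51, 1.68, 2.48 and 1.50 in control tumours. All 8 irradiated tumours lay above all 8 others. ALA+Xray against control tumours gave a 3.12-fold rise (95% interval 1.66 to 5.84, log2 1.64, SE 0.42, limma adjusted p = 0.0155), higher on 4 of 4 slides and passing in 16 of 16 fits with 1 array left out. ALA+Xray against ALA tumours gave 2.87-fold (1.53 to 5.38, adjusted p = 0.0212), lost without ALA 1 or 3 (up to 0.0549). In Xray against control tumours the fold was 2.85 (1.52 to 5.34) but the adjusted p was 0.0638.

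The Cox7a1 probe lies on the plus strand of chromosome 7, across an intron, in the span chr7:30970337-30970948 of mm9, and is given 5' to 3' as the sole probe behind this result.
Cox7a1 probe: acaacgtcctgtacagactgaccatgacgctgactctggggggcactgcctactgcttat

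The widely expressed isoform of the same subunit, Cox7a2, did not pass in any comparison. Its log2 fold change was 0.06 (95% interval -0.37 to 0.50) in ALA+Xray against control and 0.10 in Xray against control tumours. Further common subunits of complex IV rose in ALA+Xray against control tumours. Cox7c, a small membrane subunit, read 3.14, 2.98, 3.80 and 2.80 in ALA+Xray and 1.83, 2.66, 2.53 and 2.13 in control tumours, without overlap (0.89, SE 0.26, limma adjusted p = 0.026). Cox6c, another small membrane subunit, read 6.95, 6.56, 7.26 and 6.61 in ALA+Xray and 6.05, 6.50, 6.34 and 6.19 in control tumours, also without overlap (0.57, SE 0.16, 0.0233). Both calls were lost without control 1, control 4 or ALA+Xray 3, with adjusted p up to 0.0816 for Cox7c and 0.07 for Cox6c.

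Cox6b1, which faces the intermembrane space and joins the complex IV dimer, read 2.73, 2.03, 2.32 and 2.13 in ALA+Xray and 1.83, 1.82, 1.92 and 1.87 in control tumours. The groups did not overlap, and the control tumours lay close together. Its log2 fold change was 0.44 (SE 0.14, limma adjusted p = 0.0395), held in 8 of 16 fits with 1 array left out. It was lost without any 1 control, ALA 4, Xray 2 or ALA+Xray 1 or 3 (up to 0.0911), and with slide as a block (0.0537). Other common subunits did not pass, with Cox4i1 at 0.30 (95% interval -0.03 to 0.62), Cox5a at 0.29 (-0.05 to 0.62), Cox5b at 0.07 (-0.30 to 0.44), Cox6a1 at 0.23 (-0.07 to 0.52) and Cox8a at 0.10 (-0.27 to 0.47). Ndufa4, named as a complex I subunit but now assigned to complex IV, was at 0.04 (-0.27 to 0.34).

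**Figure D4:**
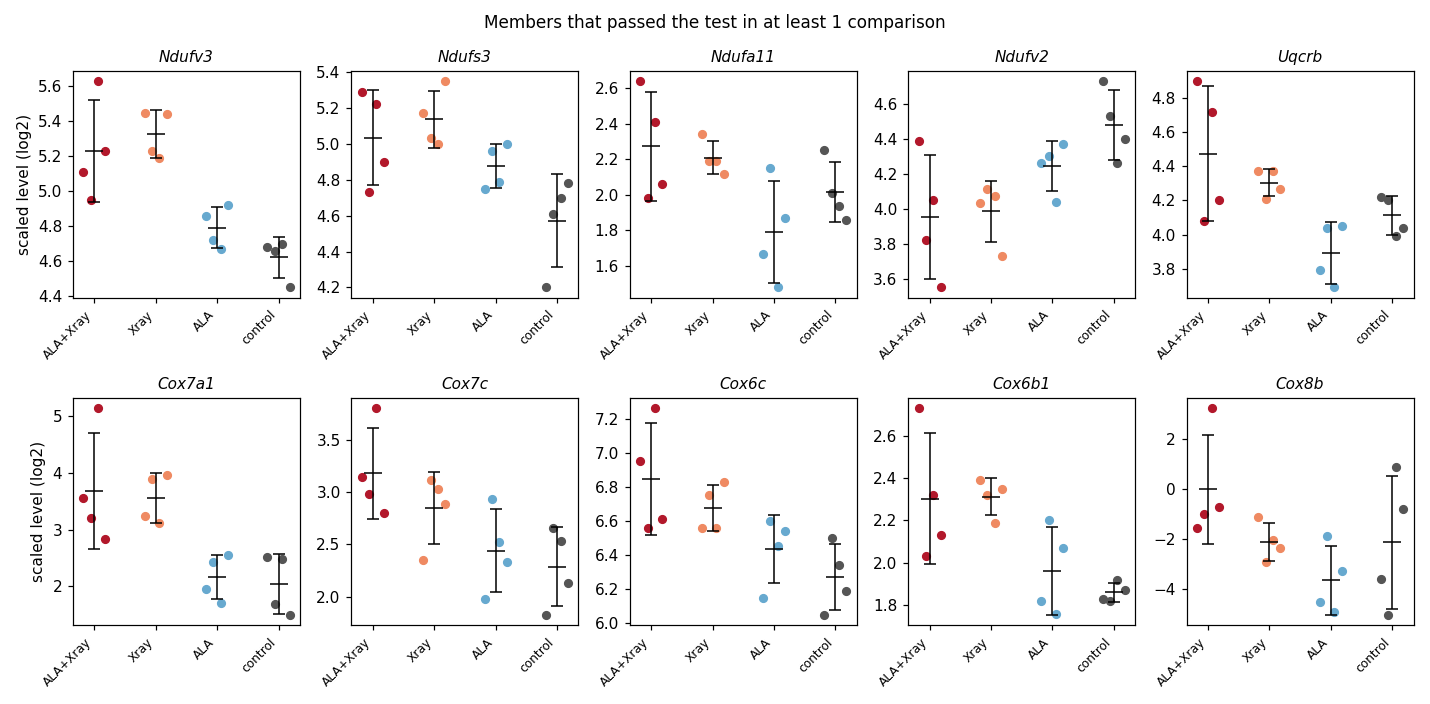
Each panel is 1 of the 10 members that passed the limma test in at least 1 comparison; points are arrays by group, the vertical axis is the scaled log2 level on a scale of its own in each panel, and error bars are the mean and SD of 4 arrays. For Ndufv3 and Cox7a1 all 8 irradiated tumours lie above the other 8, and Ndufv2 is the panel in which ALA+Xray lies lowest against control.

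The other muscle isoforms of complex IV varied with the muscle marker level of the single tumour. Cox6a2, the heart and skeletal muscle form of subunit VIa, read -3.08, -0.37, 5.05 and 0.95 in ALA+Xray tumours and -3.15, -2.76, 2.68 and 1.05 in control tumours. The mean log2 level of the muscle markers on the same arrays was -4.02, 0.02, 4.65 and 1.05 in ALA+Xray and -3.95, -3.83, 3.28 and 1.43 in control tumours, and these 8 arrays fall in the same order by both measures within each group. ALA tumours did not: ALA 2 had the highest muscle level of its group (-2.43) and the lowest Cox6a2 (-3.43). Cox6a2 did not pass in any comparison (ALA+Xray against control 1.18, 95% interval -2.07 to 4.43). In control and Xray tumours Cox7a1 was ordered differently. Control tumours 3 and 4, rich in muscle transcripts, had 2.48 and 1.50. Xray 2, with a muscle level of -4.26, had 3.90. The highest Cox7a1 level of all arrays, however, was on ALA+Xray 3, which also had the highest muscle level (4.65). Among ALA tumours, ALA 3 and ALA 1 were lowest by both measures. With the muscle level as a covariate, Cox7a1 was at 1.57 in ALA+Xray against control (limma adjusted p = 0.022) and at 1.30 in ALA+Xray against ALA (0.13). The muscle level ran from -4.36 to -2.43 in ALA and from -4.02 to 4.65 in ALA+Xray tumours. This fit therefore does not fully separate muscle from treatment in ALA+Xray against ALA. The part of muscle in the Cox7a1 values was not tested.

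Cox8b, the muscle form of subunit VIII, which brown fat also uses, read -1.55, -1, 3.25 and -0.70 in ALA+Xray tumours and -4.54, -1.88, -4.92 and -3.30 in ALA tumours. It was well above background on 4 of 4 ALA+Xray and 2 of 4 ALA arrays, and the groups did not overlap. The log2 fold change was 3.66 (SE 1.23, limma adjusted p = 0.0443), and with the muscle level as a covariate it was 1.31 (0.238). The limit given above for the covariate fit holds here too. The call held in 6 of 16 fits with 1 array left out and was lost without control 4, ALA 1, 3 or 4, Xray 2, 3 or 4, or ALA+Xray 2, 3 or 4 (up to 0.138). All 3 brown adipocyte markers were below the filter, with at most 1 of them well above background on any array. Of 14 macrophage markers tested, 13 rose in ALA+Xray against ALA (10.7% of all genes), 5 in ALA+Xray against control (9.76%) and 0 in Xray against control (1.99%). The part of macrophages or fibroblasts in the Cox7a1 and Cox8b values was not tested. Cox6b2, the testis form of subunit VIb, was at 0.35 (-0.20 to 0.90), and Cox4i2, Cox7b2 and Cox8c were well above background on at most 1 of the 16 arrays.

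**Figure D5:**
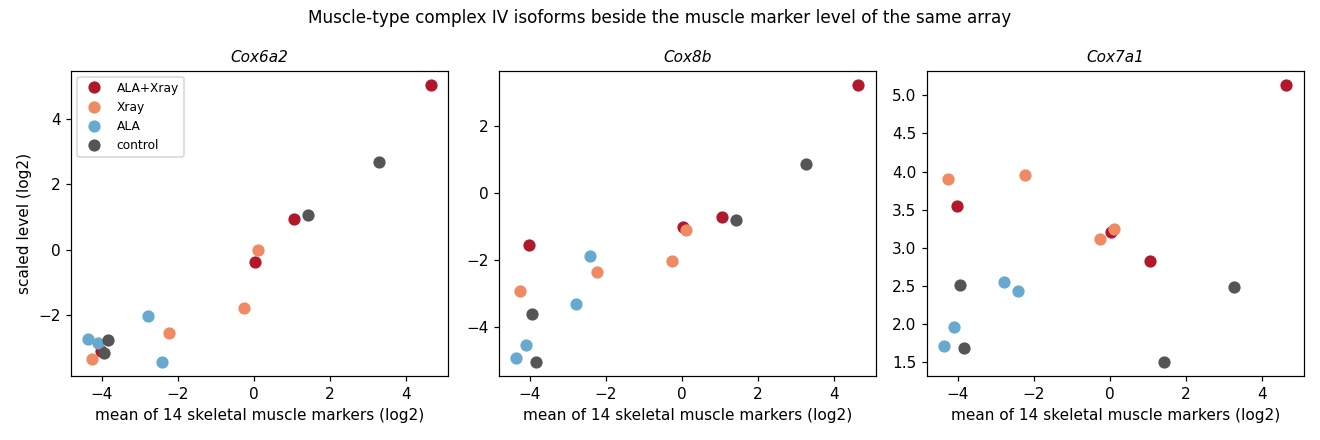
Points are the 16 arrays, with the mean log2 level of the 14 skeletal muscle markers past the filter on the horizontal axis and the scaled log2 level of Cox6a2, Cox8b or Cox7a1 on the vertical axis. Cox6a2 and Cox8b climb with the markers, to 5.05 and 3.25 on ALA+Xray array 3. For Cox7a1 all 8 irradiated arrays lie above the other 8, and the highest is also ALA+Xray array 3.

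The ATP synthase had no call in any comparison. Of its 15 genes, 10 had a fold change above 0 in ALA+Xray against control tumours, and all 15 lay within 0.5 log2 units of 0. Atp5b, the catalytic beta subunit, read 7.91, 7.60, 8.06 and 7.54 in ALA+Xray and 7.28, 7.66, 7.42 and 7.47 in control tumours, which overlap (0.32, 95% interval 0.04 to 0.60, limma adjusted p = 0.0812). The other Atp5b probes, from bases 698 and 455, went the other way in this comparison, at -0.24 (SE 0.22) and -0.45 (SE 0.25). Atp5a1, the alpha subunit, was at 0.12 (-0.17 to 0.41) and Atp5c1, the central stalk, at 0.25 (-0.06 to 0.55). The 5 genes of the F1 head had a median of 0.25 and the 10 of the membrane part and peripheral stalk 0.04.

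Probes of one gene did not always agree in sign. Of 24 members with at least 2 probes past the filter, 16 had the same sign in all probes in ALA+Xray against control and 8 did not. The widest gap was in Atp5b, 0.77 log2 units between probes that start at transcript bases 455 and 1689, the downstream one being higher. Among 15 members with probes at least 50 bases apart on one accession, the probe nearer the 3' end had the higher fold change in 10 and the lower in 5, with a median difference of 0.14. Over 2983 genes that difference was 0.11 in ALA+Xray against control, 0 in Xray against control and -0.09 in ALA against control. It was 0.11 in ALA+Xray against Xray and widest in ALA+Xray against ALA (0.22, above 0 in 73.3% of these genes). For the interaction it was 0.21. In ALA+Xray against ALA the 15 members had a median difference of 0.02.

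In Xray against control tumours Ndufv3 alone passed, 1 of 86 against 3.37% of all genes (1.99% higher and 1.38% lower). In all, 12 members had an unadjusted p under 0.05, 14% of the 86 against 21.9% of all genes. Without overlap between groups, 15 members were higher and 4 lower, 17.4% and 4.65% of members against 7.82% and 10.5% of all genes. The higher ones include Ndufs3 (0.57, limma adjusted p = 0.0591), Cox7a1 (1.51, 0.0638), Cox6b1 (0.45, 0.0925) and Cox6a1 (0.39, 0.125), and the lower ones Ndufv2 (-0.50, 0.105). The single call became 0 without control 2 or 4 or Xray 1, 2 or 4, and 3 without ALA+Xray 1 or 3. With 1 array left out, calls among all genes ran from 1 to 1086.

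ALA alone gave no call among the members and none among all 15415 genes in limma (0%). No member had an unadjusted p under 0.05, while 6.25% of all genes did, none was higher without overlap (3.19% of all genes) and 1 was lower (2.51%), and 25 of 86 members had a fold change above 0. The median was -0.06 over members and 0 over all genes. Intervals limit the size of a change: for Atp5a1 the log2 fold change was -0.05 (95% interval -0.34 to 0.24), for Cox4i1 0.03 (-0.30 to 0.35), for Uqcrc2 -0.01 (-0.32 to 0.30) and for Sdhd 0.01 (-0.25 to 0.26). Ndufs3 had the smallest p, at 0.30 (-0.03 to 0.63, adjusted p = 0.804).

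ALA+Xray against Xray tumours gave no call among the members, against 2.07% of all genes, and 1 member at an unadjusted p under 0.05, Ndufb5 (0.47, 95% interval 0.05 to 0.88), against 23.1% of all genes. No member's groups were apart, against 2.72% of all genes higher and 3.67% lower. The median was 0.02 over members and -0.08 over all genes. Leaving out ALA+Xray 1 gave 1 member call, and no other single array left out gave any. Calls among all genes ran from 3 to 3133 in these fits. The interaction of ALA and X-ray, the X-ray effect with ALA minus that without it, had no member call against 1.23% of all genes. At an unadjusted p under 0.05 there was 1 member, against 19.1% of all genes, Cox6a2 at 4.77 (95% interval 0.17 to 9.37, adjusted p = 0.247), whose values beside the muscle markers are given above.

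ALA+Xray against ALA tumours gave 5 calls of 86, all higher, against 24.1% of all genes in either direction and 10.7% higher. They were Cox7a1, Uqcrb, Ndufv3, Cox8b and Ndufa11, all described above. At an unadjusted p under 0.05 there were 18 members, against 39.6% of all genes, and 4 were higher without overlap, against 9.3%. The median was 0.18 over members and -0.13 over all genes, and 72 of 86 members were above 0. The count was 0 without ALA 1 or ALA 3, 1 without ALA+Xray 3 and 2 without ALA 4. It was 3 without control 4 or Xray 2, 3 or 4, and 9 without ALA+Xray 1. Calls among all genes ran from 2160 to 5820 in these fits. With the muscle level as a covariate the member count was 0. Of the subunits known by older names on the array, which fall outside the rule, Ndufb1 (listed as Gm2695) passed here at 0.47 (limma adjusted p = 0.0287).

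Promoters were searched because nuclear respiratory chain genes are known to share binding letters for NRF1, ETS factors, YY1 and estrogen-related receptors. RefSeq windows of 250 bases before to 50 bases after the start (build GRCm38.p6) matched 74 of 89 members. On either strand, the NRF1 palindrome, GCGCA followed by its reverse complement, stood in 6 of 74 members (8.11%) and 0.977% of 27025 promoters. The ETS letters ACCGGAAG stood in 7 (9.46%, against 2.34%), the YY1 letters AAGATGGCG in 7 (9.46%, against 1.49%), and the estrogen-related receptor letters TCAAGGTCA in 2 (2.7%, against 0.407%). The muscle E-box CAGCTG stood in 6 (8.11%), below its share of 16.1% over all promoters. A letter match is not a site, and no match says only that these letters are not in the window.

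All 7 copies of the YY1 letters read forward and began 23 to 36 bases after the start. Of the letters searched, these alone had every copy after the start, though only 7 of 74 members carry them. Examples are shown in capitals within their surroundings. The letters contain ATG, and whether a copy holds the start codon was not examined. Coordinates are chr10:80249463-80249491 (plus strand) for Ndufs7, chr6:126849097-126849125 (minus) for Ndufa9, chr3:51408915-51408943 (minus) for Ndufc1 and chr5:145191500-145191528 (minus) for Atp5j2.
Ndufs7: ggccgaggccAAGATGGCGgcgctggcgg
Ndufa9: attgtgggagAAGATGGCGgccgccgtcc
Ndufc1: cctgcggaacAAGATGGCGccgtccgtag
Atp5j2: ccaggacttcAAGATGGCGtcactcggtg

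The NRF1 letters are shown for 1 gene each of complexes I, III, IV and V, at chr17:56717692-56717721 (plus strand) for Ndufa11, chr9:108936668-108936697 (plus) for Uqcrc1, chr5:115349101-115349130 (minus) for Cox6a1 and chr5:108434430-108434459 (minus) for Atp5k. They overlap none of the other motifs searched.
Ndufa11: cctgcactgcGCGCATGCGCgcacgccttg
Uqcrc1: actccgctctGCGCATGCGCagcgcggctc
Cox6a1: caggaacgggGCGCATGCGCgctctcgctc
Atp5k: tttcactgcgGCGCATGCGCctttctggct

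Members with the NRF1 letters had a median log2 fold change of 0.02 in ALA+Xray against control tumours (6 genes), against 0.10 for the 67 tested members without them, and none was called. Those with the YY1 letters had 0.03 (7 genes, none called), against 0.11 without. Of the members called in that comparison, Ndufs3 has the ETS letters and Ndufv2 an E-box. The E-box letters also stand in Atp5b, Ndufa8, Ndufb10, Ndufs5 and Cox8b. Cox6c, another of the called members, and Cox6a2 had no matched promoter and were not searched. A link between these letters and the levels was not tested. The letters stand in capitals in the 250 bases before the start of Cox8b, chr7:140900447-140900696 (minus strand). They do not occur in the 250 bases before the start of Cox7a1, chr7:30183921-30184170 (plus strand).
Cox8b: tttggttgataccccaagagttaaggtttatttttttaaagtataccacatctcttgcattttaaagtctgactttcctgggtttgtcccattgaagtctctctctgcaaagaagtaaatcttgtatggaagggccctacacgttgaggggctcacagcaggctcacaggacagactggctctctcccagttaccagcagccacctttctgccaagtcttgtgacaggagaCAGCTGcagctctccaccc
Cox7a1: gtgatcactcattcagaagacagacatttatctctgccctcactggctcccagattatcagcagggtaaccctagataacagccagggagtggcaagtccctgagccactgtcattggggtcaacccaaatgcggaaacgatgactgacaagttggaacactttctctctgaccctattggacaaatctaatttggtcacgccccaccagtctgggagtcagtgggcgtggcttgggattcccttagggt

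Other mitochondrial genes are given beside the shares of all genes in ALA+Xray against control tumours, 9.76% higher and 15.1% lower. Of 78 mitochondrial ribosomal proteins, which translate the subunits encoded in mitochondrial DNA, 11 fell (14.1%, near the share of all genes) and 0 rose, with a median of -0.22 against -0.08 over all genes. Among those that fell were Mrpl9 (-0.68, limma adjusted p = 0.00618), Mrps9 (-0.81, 0.014) and Mrps15 (-0.75, 0.0158). Of 18 genes of mitochondrial biogenesis and DNA maintenance, 6 fell and 1 rose (38.9% called, against 24.8% of all genes), with a median of -0.34. Polg2, the accessory subunit of the mitochondrial DNA polymerase, fell by 0.99 (adjusted p = 0.00424), Tfb1m, which methylates mitochondrial ribosomal RNA, by 0.99 (0.0141) and Nrf1, a transcription factor of respiratory genes, by 1.04 (0.018). Esrra, an estrogen-related receptor that acts on the same genes, rose by 0.67 (0.0113).

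Of 35 assembly factors and cytochrome c genes outside the rule, 3 rose and 7 fell in the same comparison (28.6% called, against 24.8% of all genes), with a median of 0.01. Uqcc3, of complex III assembly, rose by 0.67 (limma adjusted p = 0.0126), Cox11, which delivers copper to complex IV, by 0.51 (0.0372) and Ttc19, of complex III, by 0.43 (0.0374). Foxred1 (-0.81, 0.0245), Nubpl (-0.43, 0.0271) and Acad9 (-0.53, 0.0305), all of complex I assembly, fell. In Xray against control tumours 0 of the 78 ribosomal and 0 of the 18 biogenesis genes passed. Of the 35 assembly factors and cytochrome c genes 1, Higd1a, rose (0.87, limma adjusted p = 0.0332). That is 2.86% called, near the 3.37% of all genes. No enzyme of the citric acid cycle passed in any comparison (18 tested, median 0.02 in ALA+Xray against control).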

How the data were processed

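Total RNA of 16 tumour preparations was labelled with Cy3 and hybridised to 1-colour Agilent mouse arrays. Per the file headers, the deposited scanner files hold spot intensity on a linear scale, background-subtracted and detrended by Agilent Feature Extraction 10.7.3.1, beside quality flags; the submitters' processing notes name version 9.5.3.1. The deposited value table holds intensity that was normalised between arrays, per its equal column distributions, and served as an alternative. Here log2 processed signals were scaled to each array's 75th percentile over non-control spots, and spots without outlier flags were averaged per probe. A probe was kept if 4 or more of 16 arrays read it well above background, and the brightest probe stood for its gene. Limma 3.58.1 (R 4.3.3, with version 1.17.8 of the data.table package) fitted 4 group means over all 15415 genes with 12 residual and 2.3 prior degrees of freedom. P-values were adjusted by Benjamini-Hochberg over all genes, at 0.05, and measure the spread between tumour preparations of a group. The fit was tested on simulated data. The number of arrays limits the precision.

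Positions of probes come from the array's mm9 annotation. Every member called in a comparison was named, plus fixed catalytic subunits and isoform pairs whatever their values, and up to 3 called genes per direction of each other list. The members and lists were chosen with earlier results of these data known. Alternatives were other backgrounds, scalings and filters, the table deposited by the authors, every probe, fits on only the arrays compared, a block for slide, moderation with trend, array weights, a muscle covariate, and each array or slide left out.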

Additional observations from a re-analysis of the deposited data

Results flagged for a closer look

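One of 152 groups of 4 arrays examined (33 named genes and 5 complex medians in 4 groups each) had an array far from the other 3, where chance gives about 1 in 20. Cox5a, a subunit next to the catalytic core of complex IV, stood at 7.13 in ALA tumour 2, with the other ALA tumours between 6.77 and 6.82. Its log2 fold change in ALA against control tumours was -0.08 (95% interval -0.42 to 0.25).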

How the results depend on the processing

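No named gene's called value changed sign. The balance of member calls in ALA+Xray against control, 6 higher and 1 lower, did turn: it was 3 and 9 with array weights, 4 and 5 without ALA+Xray 1, and 3 and 4 without slide 1. The count of members called, 7 in ALA+Xray against control, 1 in Xray against control and 5 in ALA+Xray against ALA, moved with the setting. It became 21, 3 and 17 with a normexp background, 15, 4 and 15 with quantile normalisation, 14, 4 and 10 with the percentile taken over spots bright on every array, 14, 3 and 16 in the authors' table, 1, 0 and 2 with median scaling, and 2, 0 and 1 with no filter. In fits on only the arrays compared it was 0, 3 and 0. Array weights gave 12 (3 higher, 9 lower), 7 and 7, and the muscle covariate 6, 2 and 0. Xray against control also moved to 3 with a filter on all 16 arrays and to 2 with trend and robust moderation. Leaving out 1 array gave 2 to 9, 0 to 3 and 0 to 9 calls, and leaving out a slide 0 to 7, 0 to 2 and 0 to 3. Among all genes, calls without 1 array ran from 1955 to 5953, 1 to 1086 and 2160 to 5820. Without a slide they ran from 33 to 4873, 0 to 798 and 572 to 4852. The member count of ALA+Xray against Xray stayed at 0 except 1 when ALA+Xray 1 or slide 1 was left out. Those of ALA against control and the interaction stayed at 0 in all settings run. Why these counts moved was not tested.

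Same-numbered arrays share a slide. Over all groups 9 of 24 same-numbered pairs correlated over 0.1 (range -0.46 to 0.54), but ALA+Xray and control arrays had 0.54, 0.09, 0.52 and 0.41 for numbers 1 to 4, so these groups did deviate together on 3 of 4 slides. Not every pair passed 0.1, and the labels name no shared animal, so the fit without the block was kept as the main one. The slide is still a unit shared by 1 array of every group, so the block is a fair alternative. With the replicate block (slide) the counts were 5, 1 and 6, and 0 elsewhere. Cox6b1 and Ndufs3 (ALA+Xray against control) and Ndufa11 (ALA+Xray against ALA) were lost. Cox7c (0.74, limma adjusted p = 0.0194) and Sdha (0.47, 0.0448) were gained in ALA+Xray against ALA. Median scaling moved the median of all genes in ALA against control from 0 to -0.12 and that of the members from -0.06 to -0.18; it put the members in ALA+Xray against Xray at -0.01. Of 6495 values of named genes under alternatives, 164 lost a call and 76 gained one.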

Other observations

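Genes of glycolysis, which supplies ATP without the respiratory chain, and of the hypoxia response are given beside the subunits as 1 list. Of 30 tested, 7 rose and 0 fell in Xray against control tumours (median 0.49, with 1.99% of all genes higher). In ALA+Xray against control 0 passed (median 0.12), against 24.8% of all genes. In ALA+Xray against Xray 3 fell (median -0.44, with 0.765% of all genes lower). In ALA against control none passed (0% of all genes), and 30 of 30 were above 0 (median 0.24), against 49.6% of all genes. On slide 2 alone, however, the median of the list was -0.39. In Xray against control, Ndrg1, a hypoxia-induced gene, rose by 1.15 (limma adjusted p = 0.029), Pfkp, a phosphofructokinase, by 0.94 (0.0351) and Pgam1, a phosphoglycerate mutase, by 0.46 (0.0365). The interaction passed in limma for Ndrg1 (-1.82, adjusted p = 0.0291) and for Pkm, pyruvate kinase (-0.88, 0.042). That is 6.67% of the list, against 1.23% of all genes. Of the 30 genes 29 were below 0, as were 9108 of all 15415 genes.

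Ucp2, an inner membrane carrier, rose by 1.69 (limma adjusted p = 0.0173) in ALA+Xray against control and by 2.26 (0.00551) in ALA+Xray against ALA tumours. It was the 1 call in each among 8 carriers, porins and uncoupling proteins tested (12.5%, against 24.8% and 24.1% of all genes). Among 17 genes that make ubiquinone or feed it electrons, 1 rose and 3 fell in ALA+Xray against control (23.5% called, near the 24.8% of all genes). Coq10b, a ubiquinone-binding protein, rose by 0.94 (0.0118), and Prodh, proline dehydrogenase, fell by 1.44 (0.00462). Sqor, which oxidises sulfide, was the 1 gene of that list with a called interaction (3.80, 0.0492), 5.88% of the list against 1.23% of all genes. Macrophage marker sums were highest in ALA+Xray tumours as well, and their part in these values was not tested.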
